A study of Rattus norvegicus with 12 samples.

Results

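Electroacupuncture was compared with no electroacupuncture in brain tissue of Sprague-Dawley rats that had all undergone the same operation, middle cerebral artery occlusion followed by reperfusion (MCAO/R). Members were chosen by group: the electroacupuncture columns and the MCAO columns of the deposited table, 8 of its 11 columns. The model group (MCAO/R) was bundled, that is restrained, for the same degree and duration as the treated rats. The electroacupuncture group (MCAO/R) was bundled and received electroacupuncture, a weak current through needles, at the points Tianfu, Chize, Kongzui and Taiyuan of the Lung Meridian. The control columns, named Sham in the table, come from bundled rats without MCAO/R or electroacupuncture and are given only for reference. Brain region, side, time after the operation, sex and age are named in no source used here, and none says whether each sample is an animal of its own. By its title, the study concerned synaptic plasticity.

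Occlusion of the middle cerebral artery deprives the striatum and the overlying cortex of blood, and reperfusion returns it. Neurons of the core die, microglia and astrocytes react, and myelin is lost and partly remade. Synaptic plasticity rests on glutamate receptors of the AMPA and NMDA classes, on the scaffold that holds them, and on calcium-dependent kinases such as CaMKII, which phosphorylate them when calcium enters the spine.

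The 4 MCAO columns and the 4 electroacupuncture columns did not hold 8 independent samples. In 3 pairs (MCAO1 with MCAO2, MCAO3 with MCAO4, EA2 with EA3) the median squared difference per gene was 1.34 to 1.4 times the sampling variance, against 4.75 to 26.5 times in the other 12 pairs within a group. The 16 pairs of a model with an electroacupuncture column lay at 12.5 to 27.9 times, within or near the range of pairs inside a group. Each of the 3 near-identical pairs was summed and counted as 1 sample. The comparison therefore set model A and B against electroacupuncture A, B and C, with total counts of 10010379 to 23835724 per sample. The synaptic vesicle gene Syp (392 to 2059 in CPM, counts scaled to equal library sizes, over the 5 samples) and the myelin gene Mbp (16913 to 49987 CPM) were high in every sample, and the region markers described below differed between samples.

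The gene that led the comparison was Camk2d, the delta isoform of CaMKII. Its values were 133 and 154 CPM in the 2 model samples (A, B) and 34.5, 28 and 20.5 CPM in the 3 electroacupuncture samples (A, B, C). Every electroacupuncture sample was thus far below both model samples, and the controls lay at 15.1 to 19.5 CPM. Its log2 fold change was -2.37 (SE 0.23, adjusted p = 0.123), so it did not pass the threshold of 0.05 in edgeR's quasi-likelihood test. Hpcal1, a neuronal calcium sensor, measured 84.4 and 102 CPM in the model and 38.3, 32 and 29.5 CPM with electroacupuncture (adjusted p = 0.135, log2 fold change -1.49 with SE 0.17). Sec14l5, a member of a lipid-binding family, went the other way, from 4.77 and 4 CPM to 18.6, 22.8 and 15.2 CPM (adjusted p = 0.123, log2 fold change 2.10 with SE 0.23). In all 3 genes the distance between the groups was wider than the spread inside either group. They were selected by p and lack of overlap in this same comparison, so a wide distance was built in. Here and below, paired values are model A and B, and the 3 values after them are electroacupuncture A, B and C.

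No gene passed this test. Of 15487 genes tested, 0 (0%) had an adjusted p under 0.05, the smallest adjusted p was 0.123, and 975 genes were higher and 1112 lower at an unadjusted p under 0.05. DESeq2 on the same 8 samples called 260 genes higher and 429 lower, 4.45% of those tested. With every column entered as a separate library, edgeR called 839 higher and 827 lower. That fit counts both columns of each near-identical pair as samples of their own, so its calls are not independent evidence. The DESeq2 and column-wise fits overlapped in 667 genes, 96.8% of the DESeq2 calls and 40% of the column-wise calls. Below, a gene is named as called only with the tool that called it, and the other differences are given as values.

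Genes whose samples did not overlap were common. In 1995 tested genes (12.9%) every electroacupuncture sample lay above both model samples, and in 1819 (11.7%) every one lay below. Of these, 389 were at least 2-fold higher and 631 at least 2-fold lower in estimate. Over all tested genes 53.4% were higher in estimate, and the median log2 fold change was 0.03. Counts of list members are read against these shares.

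The other leading lower genes encode proteins of varied kinds. Dpp10, an auxiliary subunit of Kv4 potassium channels, measured 79.3 and 126 CPM in the model and 30.5, 30 and 21.1 CPM with electroacupuncture. Grip2, a scaffold that binds AMPA receptors, measured 31.3 and 32.5 CPM and then 14.8, 15 and 10.9 CPM. Igsf21, a synaptic adhesion protein, measured 67.9 and 68.5 CPM and then 18, 29.4 and 19.2 CPM. For these genes, lack of overlap between the groups was a condition of their selection.

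Klf6, a zinc finger factor of axon regeneration, stood at 59 and 59.9 CPM in the model and at 25.8, 33.6 and 25.4 CPM with electroacupuncture (log2 fold change -1.07 with SE 0.16). Trpv2, a calcium-permeable cation channel, stood at 19.7 and 24.2 CPM and then at 9.2, 8.46 and 7.59 CPM. Mapk13, the delta isoform of the p38 kinases, stood at 23.3 and 11.7 CPM and then at 2.69, 2.04 and 2.85 CPM. Akr1d1, a steroid reductase and the second gene by p, stood at 32.5 and 33.8 CPM and then at 12.3, 9.14 and 11.1 CPM (log2 fold change -1.61 with SE 0.17). The controls of Mapk13 (4.86 to 10.1 CPM) and Akr1d1 (13.7 to 15.1 CPM) lay between the electroacupuncture and the model samples. The remaining leading lower genes were Usp35, a deubiquitinase (log2 fold change -1.46), the matrix gene Adamtsl2 (-1.98) and Cep295nl (-2.46).

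Among the 12 leading genes that were higher, Epha8, an ephrin receptor of axon guidance, measured 7.66 and 6.08 CPM in the model and 72.8, 104 and 282 CPM with electroacupuncture (log2 fold change 4.47 with SE 0.69). C1ql2, a secreted C1q-like protein of dentate granule cell synapses, was at 0.375 and 0.109 CPM in the model, only a few reads, and at 5.81, 55.5 and 32.9 CPM with electroacupuncture. Its fitted log2 fold change of 6.97 (SE 1.17) depends on the prior count and is not a measured size. C1ql2 was also the leading higher gene with the widest relative spread inside the electroacupuncture group, where sample A was far below B and C. Adamts3, a protease that trims procollagen, measured 7.82 and 8.32 CPM and then 23.5, 27.8 and 21.3 CPM. Dock4, an activator of the GTPase Rac, measured 6.16 and 9.42 CPM and then 29.1, 33.1 and 26.9 CPM. These last 2 genes were even within each group.

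Gpr12, an orphan receptor that raises cAMP, stood at 5.84 and 8.16 CPM in the model and at 21.1, 19.2 and 17 CPM with electroacupuncture. Plppr1, a membrane protein of neurite growth, stood at 1.71 and 1.59 CPM and then at 16.9, 7.65 and 8.01 CPM. Plppr1 was highest in electroacupuncture A, and its controls lay at 5 to 6.23 CPM, below all 3 electroacupuncture samples. Ppfia4, a liprin of the presynaptic scaffold, had a log2 fold change of 1.15 (SE 0.19), the lipoprotein receptor gene Lrp1b 1.56 (SE 0.26) and the prolyl isomerase gene Fkbp9 1.45 (SE 0.25). Zswim5 (1.31) and Chtopl1 (1.32) completed the 12. The adjusted p of the 24 leading genes was 0.123 or 0.135 in edgeR. DESeq2 called all 24, as did edgeR without electroacupuncture A. These genes were selected from this same comparison by their p and lack of overlap, so these calls are descriptions.

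**Figure D1:**
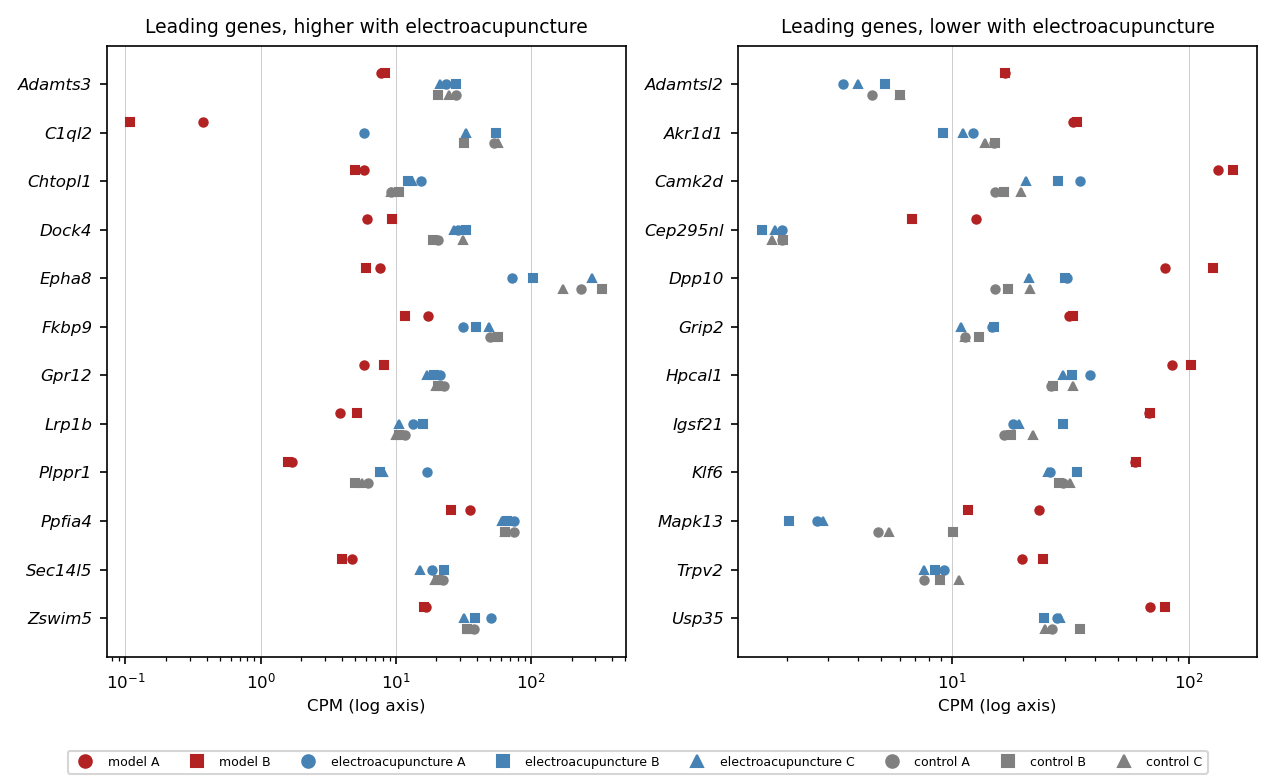
Leading genes by sample, with CPM on a log axis, 1 point per sample, colour for the group and shape for the sample. In both panels the 2 red model samples stand apart from the 3 blue electroacupuncture samples, which the selection for no overlap required. Grey controls are shown for reference.

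Upstream sequence of the 3 genes described first is shown because 2 of them were lower and 1 higher. They are not the 3 of smallest p, since Akr1d1 ranked above Sec14l5 and Hpcal1. The sequences are the 250 bases before the annotated start, from RefSeq on build GRCr8, 5′ to 3′ on the gene's strand. Camk2d is at chr2:217698301-217698550 on the plus strand, Hpcal1 at chr6:46206644-46206893 on the plus strand and Sec14l5 at chr10:10942387-10942636 on the minus strand. Capitals mark matches to CACCC (the box bound by KLF-type factors) or GGGCGG (the GC box) on either strand, and neighbouring matches may share bases.
Camk2d: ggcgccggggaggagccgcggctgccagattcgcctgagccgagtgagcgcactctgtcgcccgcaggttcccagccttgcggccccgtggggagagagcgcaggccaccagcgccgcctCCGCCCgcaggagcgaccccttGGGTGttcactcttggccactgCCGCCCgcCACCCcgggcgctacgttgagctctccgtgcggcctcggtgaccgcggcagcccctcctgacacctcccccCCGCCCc
Hpcal1: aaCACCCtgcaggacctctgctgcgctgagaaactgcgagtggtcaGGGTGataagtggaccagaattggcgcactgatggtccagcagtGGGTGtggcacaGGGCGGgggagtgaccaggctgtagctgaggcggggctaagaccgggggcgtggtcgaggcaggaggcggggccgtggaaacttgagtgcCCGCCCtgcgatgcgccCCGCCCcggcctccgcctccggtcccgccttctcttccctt
Sec14l5: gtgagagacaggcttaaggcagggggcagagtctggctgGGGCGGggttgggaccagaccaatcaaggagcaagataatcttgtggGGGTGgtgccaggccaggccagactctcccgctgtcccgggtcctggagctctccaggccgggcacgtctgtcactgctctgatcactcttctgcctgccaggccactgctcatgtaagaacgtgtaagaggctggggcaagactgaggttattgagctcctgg

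The Camk2d window holds 2 CACCC and 3 GGGCGG matches, the Hpcal1 window 3 of each, and the Sec14l5 window 1 of each. An entry was found for 22 of the 24 leading genes. CACCC was present in 14 of these 22 (8 of 11 lower and 6 of 11 higher), against 49.2% of all 33469 promoters of the same length. GGGCGG was present in 16 of 22, 8 of 11 in each direction, against 30.5% of all promoters. The cAMP response element TGACGTCA (1.59% of all promoters) and the AP-1 site TGANTCA (6.34%) were found in 0 of the 22 windows on either strand. The 33469 promoters include those of genes below the count filter, which the leading genes passed, so the shares are of unlike sets. A match is a description of letters and not of binding. GC content was 75.2% in the Camk2d window, 67.2% in Hpcal1 and 60.8% in Sec14l5, against a median of 51.2% over all promoters.

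Markers of brain regions differed between the samples, also within the electroacupuncture group. A list's level is the mean over its tested members of the log2 CPM minus the mean of the model samples. For hippocampus markers this level was 0.83, 2.38 and 2.24 in electroacupuncture A, B and C, compared with 0.19 and -0.19 in the model. The controls lay at 2.46 to 2.62. All 9 tested members were higher in estimate with electroacupuncture, 4 without overlap (12.9% of all genes). The median log2 fold change was 1.35. Prox1, the transcription factor of dentate granule neurons, stood at 6.38 and 3.83 CPM in the model and at 9.8, 61.3 and 61.1 CPM with electroacupuncture. Fibcd1, a gene of pyramidal cells in the hippocampus, stood at 4.61 and 6.24 CPM and then at 6.16, 67.8 and 50.8 CPM. Electroacupuncture A was thus at the model's level for Fibcd1, while B and C were near the controls at 58.4 to 75.3 CPM.

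Electroacupuncture A stood apart from the other samples. Over all tested genes, electroacupuncture B and C had rank correlations (Spearman) of 0.97 to 0.987 with the controls. With electroacupuncture A these were 0.912 and 0.919. The level of striatal medium spiny neuron markers was 3.37 in electroacupuncture A, -0.94 in B and -1.61 in C, compared with 0.86 and -0.86 in the model. Penk, the enkephalin precursor, stood at 1250 CPM in electroacupuncture A, 38.7 and 26.7 CPM in B and C, and 168 and 102 CPM in the model. The dopamine receptor gene Drd1 stood at 102, 4.76 and 2.11 CPM against 19.5 and 3.12 CPM. Ppp1r1b, the signalling protein DARPP-32 of these neurons, stood at 2067, 94.8 and 108 CPM against 218 and 125 CPM. The striatal list had 13 of 14 tested members higher in estimate and a median log2 fold change of 1.76, but the median was -1.67 without electroacupuncture A. Pdyn, the dynorphin precursor, was the 1 member without overlap (21.1 and 8.27 CPM, then 116, 45.7 and 41.7 CPM).

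In the same sample, genes of glutamatergic neurons lay at -2.84, against -0.57 to 0.92 in the other 4 samples of the comparison. Their vesicular transporter Slc17a7 stood at 29.1 CPM in electroacupuncture A, 596 and 337 CPM in B and C, and 117 and 353 CPM in the model. Electroacupuncture A also had the highest level of microglia and macrophages (1.08), endothelium (1.15), and choroid plexus and ependyma (1.95). Every gene group below was measured across these differences in region and cell type markers, and their part in it was not tested. In bulk tissue, fewer cells of a type and less RNA per cell cannot be told apart.

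Neocortex markers were lower in estimate in 9 of 13 tested members, 4 without overlap (11.7% of all genes). The median log2 fold change of the list was -0.33. Their level was -0.07 and 0.07 in the model and -0.51, -0.58 and -1.04 with electroacupuncture. Mef2c, a transcription factor of excitatory cortical neurons, stood at 280 and 677 CPM in the model and at 109, 124 and 112 CPM with electroacupuncture. It was called by DESeq2 (adjusted p = 1.25e-05) but not by edgeR (0.135). Cux2, a factor of the upper cortical layers, stood at 74 and 229 CPM and then at 41.6, 27.4 and 17.7 CPM. Rprm, a gene of the deep layers, stood at 17.1 and 14 CPM and then at 2.6, 4.38 and 1.05 CPM. Rorb, a factor of layer-specific cortical neurons, stood at 36.1 and 45.9 CPM and then at 31, 23.3 and 28.7 CPM. In these 4 genes the groups did not overlap, and model B held the highest value of 3 of them.

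**Figure D2:**
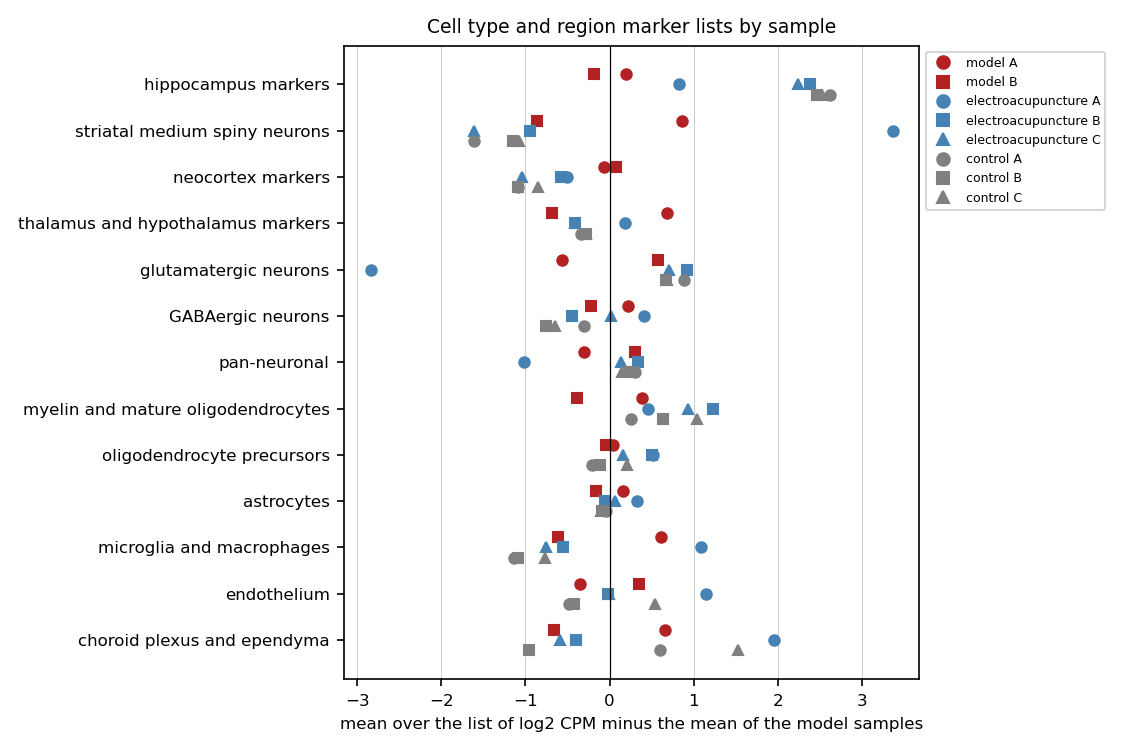
Marker lists of cell types and regions by sample. The x axis is the mean over a list of log2 CPM minus the mean of the model samples, with colour for the group and shape for the sample. Electroacupuncture A lies far from B and C for striatal (3.37) and glutamatergic (-2.84) genes.

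Without electroacupuncture A, edgeR called 180 genes higher and 98 lower, 1.82% of 15275 tested. The genes named in this paragraph and on no list were chosen after their values were seen. Cabp7, a calcium-binding protein, stood at 23.2 and 15.3 CPM in the model and at 14.3, 248 and 286 CPM in electroacupuncture A, B and C. Mas1, a G protein-coupled receptor gene, stood at 4.23 and 5.36 CPM and then at 0.868, 58.2 and 74.8 CPM. Klk8, a protease of hippocampal neurons, had 0 and 0.0547 CPM in the model, 0 CPM in electroacupuncture A, and 13.6 and 16.8 CPM in B and C. In all 3 genes electroacupuncture A was at or below the model's level, and the controls (295 to 373, 70.1 to 87.3 and 11.4 to 14.8 CPM) were near B and C.

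In the same fit Prox1, C1ql2 and Fibcd1 of the hippocampus list were called higher (adjusted p = 0.0067, 0.0067 and 0.00516), as was Neurod6, a factor of glutamatergic neurons (0.0335). Neurod6 stood at 39.1 and 70.3 CPM in the model and at 5.29, 239 and 245 CPM with electroacupuncture. Penk was called lower (0.0295). So were the homeobox genes Six3 (0.0067) and Meis2 (0.0212), which are active in the developing striatum but on no list here and were chosen after their values were seen. Six3 stood at 20.2 and 50.7 CPM in the model, at 20.8 CPM in electroacupuncture A, and at 0.085 and 0.211 CPM in B and C. Meis2 stood at 197 and 127 CPM, then at 281, 37.1 and 26.5 CPM. With the model and electroacupuncture samples alone and electroacupuncture A left out, 0 genes were called, with 1908 at an unadjusted p under 0.05.

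Genes of myelin and mature oligodendrocytes were higher in estimate throughout the list. All 20 tested members were higher in estimate (53.4% of all genes were), 13 of 20 without overlap (12.9% of all genes), and the median log2 fold change was 0.87. edgeR called 0 of the 20, and DESeq2 called Cldn11 and Mag. Mag, a myelin adhesion protein, measured 171 and 100 CPM in the model and 291, 428 and 307 CPM with electroacupuncture (log2 fold change 1.34 with SE 0.41 and adjusted p = 0.237 in edgeR, and adjusted p = 0.0283 in DESeq2). Cldn11, the claudin of myelin tight junctions, measured 353 and 138 CPM and then 491, 905 and 651 CPM. Mog, a myelin surface antigen, measured 127 and 80.9 CPM and then 163, 282 and 207 CPM. In all 3 genes model B was the lowest and electroacupuncture B the highest of the 5 samples.

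Other myelin genes had the same lowest and highest samples. Fa2h, which hydroxylates their fatty acids, measured 31.5 and 19.5 CPM in the model and 45.1, 96.6 and 46.8 CPM with electroacupuncture. Ugt8, which makes galactosylceramide, measured 78.2 and 40.2 CPM and then 88.8, 207 and 124 CPM. Cnp, a phosphodiesterase of the myelin sheath, measured 349 and 240 CPM and then 513, 838 and 522 CPM. Opalin, a membrane protein of mature oligodendrocytes, measured 97 and 62 CPM and then 114, 240 and 134 CPM. Myrf, the transcription factor that switches on myelin genes, measured 115 and 97 CPM and then 152, 190 and 175 CPM. The 5 genes did not overlap between the groups, though for Ugt8 and Opalin electroacupuncture A lay close above model A.

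Mbp, which encodes myelin basic protein, overlapped between the groups, at 31031 and 16913 CPM in the model and at 19842, 31981 and 49987 CPM with electroacupuncture. The list's level was 0.39 and -0.39 in model A and B and 0.46, 1.23 and 0.93 in electroacupuncture A, B and C, so electroacupuncture A exceeded model A by little. Its median was 1.32 without model A and 0.58 without model B, and stayed above 0 with each model or electroacupuncture sample left out. The controls spread from 0.26 to 1.04.

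Oligodendrocyte precursor genes were higher in estimate in 8 of 9 tested members, 3 without overlap (12.9% of all genes). The median log2 fold change of the list was 0.40. Gpr17, a receptor of precursors that begin to differentiate, stood at 4.98 and 3.94 CPM in the model and at 8.24, 11.8 and 12 CPM with electroacupuncture. It was called by DESeq2 (adjusted p = 0.00285) and by edgeR without electroacupuncture A (0.0399). The lineage factor Olig2 stood at 42.5 and 40.8 CPM and then at 74.9, 64.5 and 66.8 CPM, and was called by DESeq2 (0.0237). Its relative Olig1 stood at 174 and 158 CPM and then at 209, 240 and 267 CPM. For Gpr17 and Olig2 all 3 electroacupuncture samples were also above the controls (5.77 to 6.59 and 35.4 to 52.9 CPM), whereas for Olig1 they were not.

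Glutamate receptor genes had no common direction. Of 26 tested receptors and AMPA receptor regulators, 12 were higher and 14 lower in estimate. Among them 4 and 2 had no overlap (12.9% and 11.7% of all genes). The median log2 fold change was -0.04, or 0.35 without model B. The AMPA receptor subunit Gria1 stood at 23.4 and 18.7 CPM in the model and at 29.9, 73 and 57.2 CPM with electroacupuncture (adjusted p = 0.183, log2 fold change 1.34 with SE 0.35). DESeq2 called it (0.0134). The subunit Gria2 stood at 656 and 854 CPM and then at 422, 863 and 897 CPM, with a log2 fold change of -0.05 (SE 0.33). Gria1 was higher in every electroacupuncture sample, while Gria2 ran through both groups. The regulators Cacng8 and Cnih2, which escort AMPA receptors, overlapped between the groups (adjusted p = 0.301 and 0.365 in edgeR). Cacng8 stood at 21.2 and 34.6 CPM and then at 28.8, 90.3 and 85.2 CPM. Cnih2 stood at 424 and 419 CPM and then at 409, 855 and 1020 CPM. Only without electroacupuncture A, which lay at the model's level, did edgeR call both higher (adjusted p = 0.0317 and 0.0364).

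The NMDA receptor subunit Grin2a stood at 2.41 and 0.274 CPM in the model and at 3.99, 17.5 and 8.12 CPM with electroacupuncture, and Grin2d at 28.5 and 31.6 CPM and then at 12.3, 19 and 18.5 CPM. These 2 subunits lay on opposite sides. The obligatory subunit Grin1 stood at 341 and 707 CPM and then at 435, 595 and 587 CPM. Its log2 fold change was 0.04 (SE 0.31), and that of Grin2b was -0.24 (SE 0.36). The kainate receptor subunit Grik2 stood at 7.93 and 11.9 CPM and then at 28.1, 20.2 and 14.4 CPM.

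Some genes of this kind were near 0 in some samples and far above 0 in others of the same group. Gria3, an AMPA receptor subunit, stood at 3 and 1.64 CPM in the model, at 102, 1.96 and 164 CPM with electroacupuncture, and at 265, 0.909 and 1.01 CPM in the controls. Calm3, 1 of the calmodulin genes, stood at 284 and 0.164 CPM in the model and at 225, 409 and 397 CPM with electroacupuncture. Calm3 thus split the model group and Gria3 the electroacupuncture and control groups, and Calm3 shares its protein with the other calmodulin genes. Gria3 and Calm3 were singled out after their values were seen.

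Plasticity kinases were mixed as well, with 17 of 29 tested higher and 12 lower in estimate, and a median log2 fold change of 0.19. Lack of overlap held for 2 higher and 4 lower members (12.9% and 11.7% of all genes). The median was -0.13 without model A and 0.81 without model B. The neuronal CaMKII isoforms did not follow Camk2d. Camk2a stood at 101 and 183 CPM in the model and at 156, 161 and 291 CPM with electroacupuncture (log2 fold change 0.51 with SE 0.35). Camk2b stood at 465 and 705 CPM and then at 637, 1161 and 1168 CPM (0.76, SE 0.32). Both overlapped between the groups, and both estimates were opposite in sign to Camk2d. The gamma isoform Camk2g was lower in estimate, like Camk2d, but overlapped (-0.43, SE 0.31). It stood at 104 and 200 CPM and then at 84.7, 116 and 138 CPM. Camk1d, a kinase of the CaMKI group, stood at 9.97 and 10.8 CPM and then at 20.8, 24.1 and 16.3 CPM. Its relative Camk1 stood at 76.2 and 92.8 CPM and then at 56, 51.1 and 43.2 CPM. DESeq2 called Camk1d higher (adjusted p = 0.00667) and Camk1 lower (0.0101). Prkce, a protein kinase C, stood at 16.3 and 15.2 CPM and then at 18.7, 31.7 and 34.9 CPM.

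Among postsynaptic scaffolds, 12 of 20 tested were higher in estimate, 2 without overlap (12.9% of all genes), and 8 lower, 1 without overlap (11.7%). The median log2 fold change was 0.20, and -0.04 without model A. Dlg4, the main scaffold PSD-95, stood at 364 and 623 CPM in the model and at 805, 773 and 725 CPM with electroacupuncture (adjusted p = 0.327, log2 fold change 0.64 with SE 0.25). Every electroacupuncture sample was above both model samples for Dlg4. Lrrtm3, an adhesion protein, stood at 41.5 and 66.4 CPM and then at 31.1, 23 and 19.5 CPM, and was called lower by DESeq2 (adjusted p = 0.012). Homer3, a scaffold of metabotropic receptors, stood at 45.1 and 29.1 CPM and then at 38.5, 97.4 and 114 CPM. It overlapped through electroacupuncture A (adjusted p = 0.305 in edgeR), and edgeR called it higher without that sample (0.0306).

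Genes of presynaptic release were lower in estimate in 17 of 26 tested members and higher in 9. Of the 26, 3 were lower without overlap, close to the share of all genes (11.7%), and 0 were higher without overlap (12.9%). The median log2 fold change of the list was -0.26. Stx1a, a syntaxin of the fusion machinery, stood at 138 and 434 CPM in the model and at 52.5, 88.4 and 65.5 CPM with electroacupuncture. It was called by DESeq2 (adjusted p = 0.00155). Nrxn3, a neurexin, stood at 192 and 256 CPM and then at 140, 150 and 97.7 CPM, and the active zone gene Pclo at 123 and 145 CPM and then at 44, 81.5 and 117 CPM. The vesicle genes Syn1 (717 and 1251 CPM, then 350, 1085 and 709 CPM) and Syp (1335 and 2059 CPM, then 392, 1915 and 1495 CPM) overlapped, with electroacupuncture A lowest in both. The median of this list was 0.18 without model B.

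**Figure D3:**
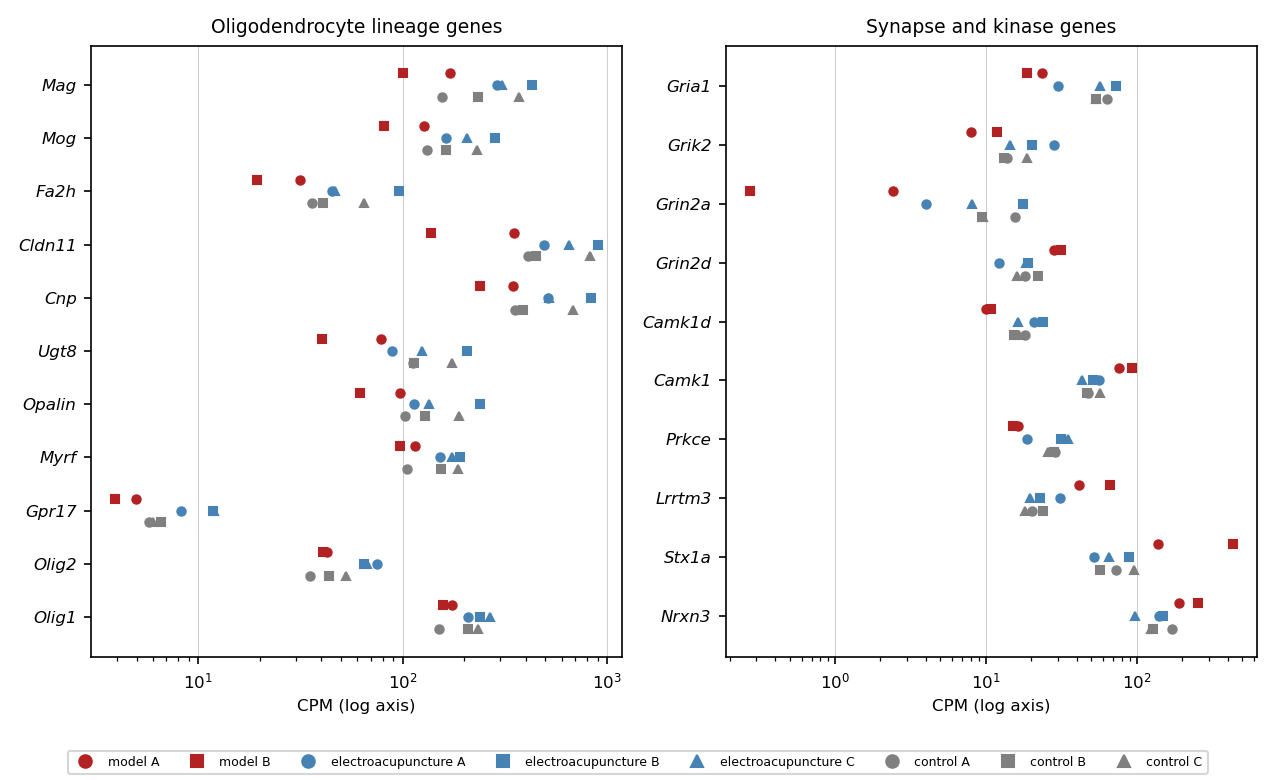
Oligodendrocyte lineage genes (left) and synapse and kinase genes (right) by sample, with CPM on a log axis, colour for the group and shape for the sample. Each gene shown had no overlap between the 2 model and the 3 electroacupuncture samples, with all left-panel genes on the higher side and the right panel on both sides.

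GABA-A receptor genes divided evenly, with 6 of 13 tested members higher in estimate and 7 lower. Each way 1 was without overlap (12.9% of all genes higher and 11.7% lower). The median log2 fold change was -0.14, and 0.39 without model B. Gabra3 stood at 14.5 and 23 CPM in the model and at 10.7, 12.1 and 5.91 CPM with electroacupuncture, and was the gene without overlap on the lower side. Gabrb2 stood at 142 and 427 CPM and then at 79.5, 171 and 127 CPM, and overlapped through electroacupuncture B. Gabra5, a subunit enriched in the hippocampus, stood at 47.7 and 84.9 CPM and then at 30.7, 246 and 196 CPM. It overlapped through electroacupuncture A (adjusted p = 0.535 in edgeR), and edgeR called it higher without that sample (0.0488).

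GABAergic neuron genes were lower in estimate in 9 of 13 tested members, 3 without overlap (11.7% of all genes). The median log2 fold change of the list was -0.27. The neuropeptide gene Sst stood at 255 and 299 CPM in the model and at 121, 144 and 146 CPM with electroacupuncture (adjusted p = 0.135, log2 fold change -1.02 with SE 0.18). DESeq2 called it (6.00e-05). Lhx6, a factor of cortical interneurons, stood at 15.9 and 20.1 CPM and then at 12.8, 11.5 and 10 CPM, and the peptide gene Cck at 599 and 1200 CPM and then at 75.5, 349 and 359 CPM. Sst and Lhx6 were even within each group, while Cck varied within both. The mean log2 fold change of the list was 0.53, opposite in sign to its median, and included Gad2, which had 0 CPM throughout the model group but 36.3, 0 and 6.22 CPM in electroacupuncture A, B and C.

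Immediate early genes, which neurons switch on with activity, were higher in estimate in 15 of 18 tested members. Of these, 3 had no overlap (12.9% of all genes), and the median log2 fold change of the list was 0.39. Nr4a3, a nuclear receptor of this class, stood at 12.8 and 11 CPM in the model and at 14.4, 55.5 and 25.2 CPM with electroacupuncture. Arc, a regulator of AMPA receptor uptake, stood at 48.7 and 52 CPM and then at 54.6, 106 and 75.2 CPM (adjusted p = 0.375, log2 fold change 0.64 with SE 0.28). Egr1 stood at 10.2 and 18.1 CPM and then at 28.3, 48.9 and 15.2 CPM, and Fos at 10.9 and 7.61 CPM and then at 8.76, 30.3 and 3.9 CPM. Electroacupuncture B was the highest sample in all 4 genes, and without it the median of the list was 0.00. The Arc controls lay at 114 to 156 CPM, above every sample of both operated groups.

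Growth factor genes had a median log2 fold change of -0.00 over 15 tested members. Bdnf, the neurotrophin of activity-dependent plasticity, stood at 7.39 and 20.1 CPM in the model and at 0.781, 49.2 and 23.3 CPM with electroacupuncture (log2 fold change 0.84 with SE 1.20). Its receptor gene Ntrk2 stood at 706 and 510 CPM and then at 545, 373 and 399 CPM. Nrg1, the neuregulin of axon-glia signalling, stood at 49.9 and 44.2 CPM and then at 27.2, 21.8 and 16 CPM, and was called lower by DESeq2 (adjusted p = 0.00791). Igf1 stood at 48.4 and 16 CPM and then at 14.2, 11.5 and 11.8 CPM. Nrg1 and Igf1 were the members without overlap, both on the lower side (11.7% of all genes).

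Genes of axon growth and regeneration were lower in estimate in 11 of 17 tested members, 4 without overlap (11.7% of all genes). They were higher in 6, 2 without overlap (12.9%). The median log2 fold change was -0.21, between -0.36 and -0.14 with single model or electroacupuncture samples left out. Gap43, the growth cone protein, stood at 397 and 469 CPM in the model and at 209, 228 and 132 CPM with electroacupuncture (adjusted p = 0.15, log2 fold change -1.19 with SE 0.26). DESeq2 called it (0.00277), along with Klf6. Klf7, a relative of Klf6, stood at 20.6 and 13.1 CPM and then at 10.7, 10.4 and 5.38 CPM, and the adhesion gene L1cam at 175 and 183 CPM and then at 133, 158 and 129 CPM. Gap43, Klf6, Klf7 and L1cam were the 4 lower members without overlap. Controls lay at 126 to 175 CPM for Gap43 and at 28.3 to 31.4 CPM for Klf6.

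Of the genes for inhibitors of axon growth in myelin and matrix, 8 of 14 tested were higher in estimate and 6 lower. Groups did not overlap in 4 higher and 1 lower (12.9% and 11.7% of all genes). The proteoglycan genes Bcan (106 and 113 CPM, then 174, 184 and 222 CPM), Ncan (18.5 and 24.1 CPM, then 36.5, 37.4 and 26.4 CPM) and Acan (1.07 and 1.59 CPM, then 2.34, 3.49 and 2.95 CPM) were on the higher side. They encode matrix around neurons and synapses. Sema3a, a secreted repellent of axons, was on the lower side, at 10.7 and 31.3 CPM in the model and at 5.21, 3.78 and 2 CPM with electroacupuncture. DESeq2 called Bcan (adjusted p = 0.00212) and Sema3a (0.00127).

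Potassium channel genes had 9 of 20 tested members higher in estimate, 4 without overlap (12.9% of all genes). The other 11 were lower, 1 without overlap (11.7%). The median log2 fold change was -0.08, and 0.50 without model B. Kcnab1, a beta subunit of Kv1 channels, stood at 64.7 and 39.9 CPM in the model and at 169, 138 and 127 CPM with electroacupuncture (adjusted p = 0.135, log2 fold change 1.47 with SE 0.25). It was called by DESeq2 (3.37e-05) and by edgeR without electroacupuncture A (0.0488). Without model A, which leaves 1 model sample, its log2 fold change was 1.86. Kcnip2, a calcium-sensing partner of Kv4 channels, stood at 49.5 and 17.2 CPM and then at 122, 104 and 100 CPM. The Kv4 subunit Kcnd3 stood at 61 and 62.1 CPM and then at 26.5, 45.9 and 28.1 CPM. Kcna4, a Kv1 subunit, stood at 13 and 15.9 CPM and then at 30.6, 33.6 and 16.1 CPM. Kcnd3, like the Kv4 partner Dpp10, was lower, whereas Kcnip2 was higher.

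Receptors for monoamines, acetylcholine and opioids were higher in estimate in 9 of 17 tested members and lower in 8. Among them 1 and 4 had no overlap (12.9% and 11.7% of all genes). The median log2 fold change was 0.06, and -0.66 without electroacupuncture A. Adra2a, an adrenergic receptor, stood at 7.98 and 52.1 CPM in the model, while all 3 electroacupuncture samples lay at or under 2.38 CPM. Chrna4, a nicotinic receptor subunit, stood at 12.8 and 12.4 CPM and then at 1.39, 5.4 and 2 CPM. DESeq2 called both lower (adjusted p = 7.09e-05 and 0.0306).

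Both groups were restrained, and genes of glucocorticoid and restraint stress were higher in estimate in 9 of 14 tested members, and the list had a median log2 fold change of 0.38. Nr3c2, the mineralocorticoid receptor, stood at 22 and 22.3 CPM in the model and at 25.1, 113 and 98.1 CPM with electroacupuncture, so the difference lay in samples B and C. Crhr1, the receptor of corticotropin-releasing hormone, stood at 12.5 and 25.7 CPM and then at 4.68, 4.59 and 4.22 CPM. Sgk1, a kinase induced by glucocorticoids, stood at 62.2 and 110 CPM and then at 231, 83.9 and 258 CPM, and overlapped through electroacupuncture B. DESeq2 called Nr3c2 higher (adjusted p = 0.0321) and Crhr1 lower (0.000357).

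Microglia and macrophage genes overlapped between the groups in all 15 tested members (12.9% of all genes were higher and 11.7% lower without overlap). In estimate 9 were higher and 6 lower. Their level was 0.61 and -0.61 in the model and 1.08, -0.55 and -0.75 with electroacupuncture. The median log2 fold change was 0.11, but -0.74 without electroacupuncture A and 0.65 without model A. Aif1, the calcium-binding microglial marker IBA1, stood at 80.8 and 35.3 CPM in the model and at 61.3, 29.2 and 25 CPM with electroacupuncture. Tmem119, a microglial surface marker, stood at 22.9 and 21.7 CPM and then at 48.7, 14.3 and 14.2 CPM. Gfap, the filament of reactive astrocytes, stood at 2259 and 502 CPM and then at 1783, 1207 and 1254 CPM. The spread between model A and B was wider than the difference between the group means for Aif1 and Gfap. Of 12 markers of neutrophils and lymphocytes, 4 passed the filter on low counts, 1 higher in estimate and 3 lower. The higher one was Cd3e, of the T cell receptor complex, at 0.0536 and 0.219 CPM in the model and at 0.954, 6.84 and 10.2 CPM with electroacupuncture. It was called higher by DESeq2 (adjusted p = 0.000112) and by edgeR without electroacupuncture A (0.0318), and its controls lay at 8.15 to 29.4 CPM.

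Antigen presentation genes had no common direction (8 of 15 tested higher in estimate, 7 lower), but the MHC class II genes were highest in electroacupuncture A. Cd74, the invariant chain of MHC class II, stood at 831 CPM there, at 16.4 and 11.6 CPM in B and C, and at 90 and 12.7 CPM in the model. RT1-Da, a rat MHC class II gene, stood at 145, 1.7 and 0.949 CPM against 10.3 and 1.86 CPM. MHC genes have near-identical copies, so the split of reads between them is uncertain. Without electroacupuncture A the log2 fold change of Cd74 was -1.86 and that of RT1-Da -2.14.

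Interferon response genes were lower in estimate in 18 of 22 tested members, 2 without overlap (11.7% of all genes). The median log2 fold change of the list was -0.45. Their level was 0.54 and -0.54 in model A and B and 0.40, -0.74 and -0.64 in electroacupuncture A, B and C. Oas1b, an antiviral synthetase gene, stood at 27.4 and 21.7 CPM and then at 19, 13.2 and 17.7 CPM. The median of this list was 0.29 without model A.

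Toll-like receptor and inflammasome genes were higher in estimate in 8 of 14 tested members and lower in 6. Of these, 0 and 1 had no overlap (12.9% and 11.7% of all genes), and the median log2 fold change was 0.02. The 1 was Nlrp3, the inflammasome sensor, which stood at 31.3 and 18 CPM and then at 14.1, 10.2 and 10.1 CPM, and was called lower by DESeq2 (adjusted p = 0.0332). Complement genes were lower in estimate in 10 of 14 tested members and higher in 4, 1 without overlap each way, with a median of -0.26 that became 0.79 without model A. The higher member without overlap was Cd55, a complement regulator, which stood at 1.29 and 1.04 CPM and then at 3.38, 3.61 and 3.9 CPM, and was called higher by DESeq2 (0.00691). Reactive astrocyte genes were lower in estimate in 11 of 18 tested members, 2 without overlap, and higher in 7, 1 without overlap, with a median of -0.20 that became 0.40 without model A. Against that median, Serpina3n was at 0.214 and 0 CPM in the model and at 0.954, 4.93 and 12.2 CPM with electroacupuncture, and was called higher by DESeq2 (0.00023) and by edgeR without electroacupuncture A (0.0381).

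Of the mural cell and fibroblast genes, 8 of 11 tested were higher in estimate, 4 without overlap (12.9% of all genes). The other 3 were lower, namely Col1a1 (log2 fold change -0.66), Col1a2 (-1.24 with SE 1.83) and Lum (-0.56). Of these, 1 had no overlap (11.7% of all genes), Col1a2, which was at or under 2.19 CPM in all 5 samples. The median log2 fold change of the list was 0.55, or -0.08 without electroacupuncture A. Tagln, a smooth muscle protein, stood at 14.6 and 8.05 CPM in the model and at 24.6, 21.6 and 33.2 CPM with electroacupuncture, and was called by DESeq2 (adjusted p = 0.0228). The pericyte gene Rgs5 stood at 3.97 and 5.64 CPM and then at 17.2, 6.93 and 9.07 CPM.

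Nuclear genes of oxidative phosphorylation were higher in estimate in 15 of 19 tested members, 3 without overlap (12.9% of all genes). The median log2 fold change of the list was 0.13, or -0.03 without model A. Atp5f1a, a subunit of ATP synthase, stood at 193 and 227 CPM in the model and at 281, 281 and 253 CPM with electroacupuncture, and Uqcrc2, of the respiratory chain, at 155 and 140 CPM and then at 158, 214 and 256 CPM. Glycolysis genes were lower in estimate in 10 of 15 tested members, 1 without overlap (11.7% of all genes), with a median of -0.05. Hypoxia response genes were higher in estimate in 8 of 14 tested members and lower in 6, 2 without overlap each way. Their median was 0.23, and -0.01 without electroacupuncture A. The 2 higher members without overlap were Hif1a (59.6 and 54.1 CPM, then 71, 66 and 71.4 CPM) and Ndrg1 (138 and 129 CPM, then 192, 168 and 226 CPM). On the lower side were the glycolytic enzyme Pfkp (280 and 393 CPM, then 218, 241 and 223 CPM) and Pdk1, which restrains entry of pyruvate into mitochondria (61.9 and 70.7 CPM, then 45.2, 46.3 and 42.2 CPM). DESeq2 called Pdk1 (adjusted p = 0.0204).

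Heat shock and unfolded protein response genes were lower in estimate in 10 of 15 tested members and higher in 5. Lack of overlap held for 1 lower (Xbp1) and 2 higher members (11.7% and 12.9% of all genes). The median log2 fold change was -0.16, and 0.21 without model A. The 2 higher members without overlap were the chaperone genes Hspd1 (83.9 and 72.3 CPM, then 102, 110 and 105 CPM) and Hsph1 (147 and 154 CPM, then 198, 215 and 192 CPM), and their values within each group were close together. DESeq2 called Hsph1 (adjusted p = 0.0174). Genes of oxidative stress and ferroptosis defence were higher in estimate in 14 of 19 tested members, 3 without overlap, with a median of 0.16. The peroxidase gene Prdx6 stood at 92.5 and 82.1 CPM and then at 163, 103 and 111 CPM.

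**Figure D4:**
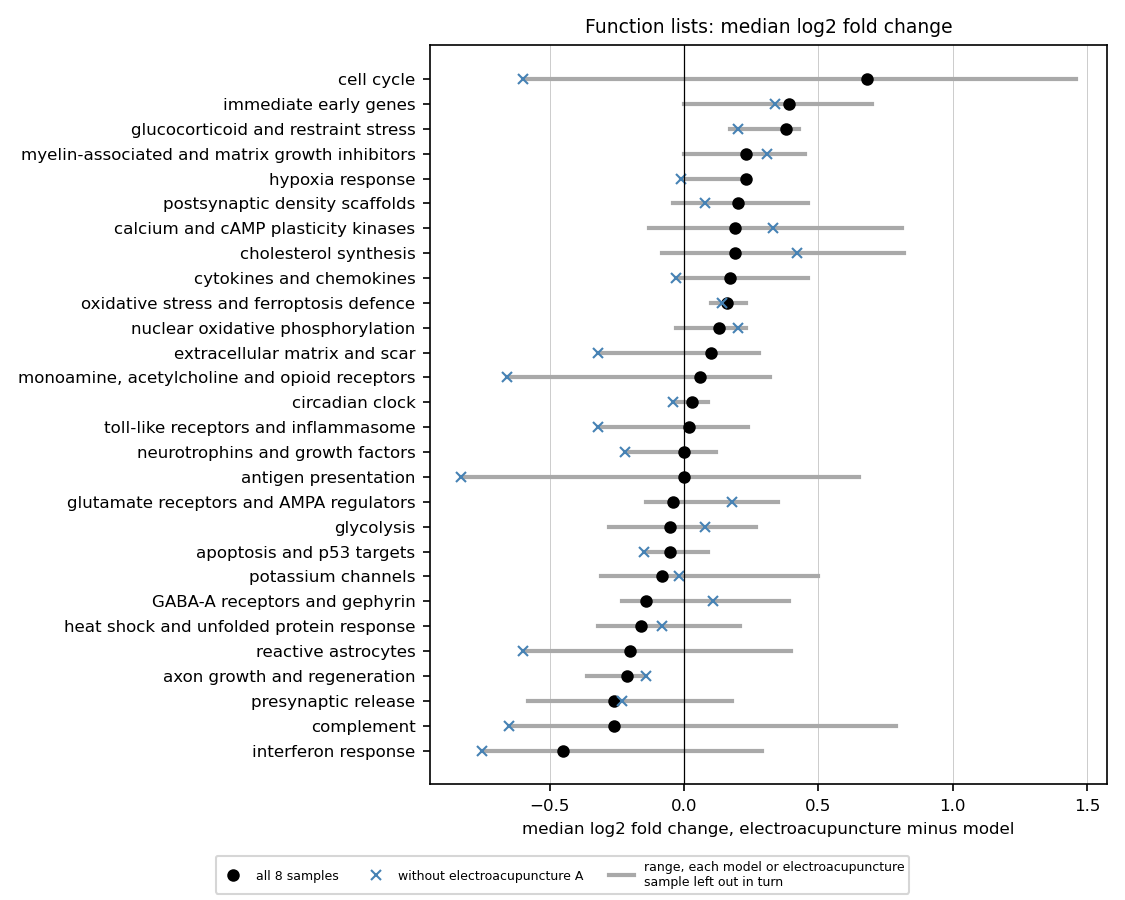
Median log2 fold change, electroacupuncture minus model, of each function list: black points for all 8 samples, grey bars for the range with each model or electroacupuncture sample left out, and blue crosses without electroacupuncture A. Bars of most lists reach across 0, and axon growth and regeneration (-0.36 to -0.14) stays below it.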

How the data were processed

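Messenger RNA (poly(A)-selected) of rat brain tissue was sequenced. The authors deposited estimated counts per gene without normalization; the submitters' processing notes name DESeq2 1.16.1, featureCounts 1.5.0-p3, StringTie 1.3.3b and HISAT2 2.0.5. No source used here names the genome build. Column names gave the group only. Of 18804 rows, 4 repeated symbols were summed, and counts were rounded. Columns under 2 times the sampling variance (genes with at least 20 counts) were summed as 1 sample. All 8 samples entered 1 edgeR 4.0.16 quasi-likelihood fit in R 4.3.3 (TMM, filterByExpr, robust, 2-sided, 5 residual degrees of freedom), with Benjamini-Hochberg adjustment over 15487 genes. The biological coefficient of variation was 36.8%. CPM were TMM-scaled. The p-values reflect only how these samples varied, which could be technical. The script was tested on simulated data. DESeq2 1.42.0, other scalings, filters, column treatments and left-out samples were alternatives. Leading genes are the 12 higher and 12 lower of smallest p without overlap and with at least 1 CPM; other named genes are list members of smallest p, genes chosen for their role, and those said to be chosen after their values were seen; some are not reported here. The members and lists were chosen with earlier results of these data known.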

Additional observations from a re-analysis of the deposited data

How the results depend on the processing

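In edgeR, 0 genes were called with size factors, total counts, no filter, the stricter filter, 1 column per near-identical set, or the model and electroacupuncture samples alone, with 1325 to 2233 genes at an unadjusted p under 0.05. DESeq2 called 260 higher and 429 lower (91 genes had no adjusted p), and the fit of every column as a separate library 839 and 827. With 1 sample left out the counts ranged from 0 to 180 higher and from 0 to 176 lower: 132 and 176 without model A, 180 and 98 without electroacupuncture A, and 0 in the 6 others, with 1636 to 1863 genes at an unadjusted p under 0.05. Genes without overlap numbered 2503 to 4329 higher and 2458 to 4091 lower with 1 model or electroacupuncture sample left out. Fewer samples make non-overlap easier by construction. With model A or B left out, the model group was 1 sample, so the spread came from the other groups alone.

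With the number shared by column names as a replicate block, 0 genes were called, with 3013 at an unadjusted p under 0.05, and 441 higher and 535 lower without the block in the same 2 groups, a fit chosen after seeing the data. For each gene, the deviation of a column's log2 CPM from its group mean was taken. Between same-numbered model and electroacupuncture columns these deviations correlated at 0.19, -0.15, 0.13 and 0.11, so the numbers were not taken as pairs.

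Of the 44 lists, 34 had a median that turned its direction in at least 1 setting, and 10 did not. Among the named genes, 26 values reversed, and the cause was not tested. Without electroacupuncture A, the log2 fold change was -1.86 for Cd74, -1.67 for Drd1, -2.03 for Penk, -0.75 for Ppp1r1b, -2.14 for RT1-Da, 0.01 for Syp, -0.64 for Tmem119, -0.16 for Gfap, 0.23 for Gria2 and 0.04 for Grin2b. Without electroacupuncture B it was -0.22 for Bdnf, -0.55 for Fos, -0.05 for Grin1 and -0.38 for Slc17a7, and without electroacupuncture C -0.03 for Grin1. Without model A it was 0.12 for Aif1, -0.39 for Grin1 and -0.14 for Slc17a7. Without model B it was -0.67 for Gfap, 0.15 for Gria2 and 0.16 for Grin2b. With every column separate it was -0.02 for Gfap and 0.01 for Gria2, with the first column of each near-identical set -0.03 for Grin1, and with the replicate block -0.93 for Penk and -0.21 for Tmem119. With each sample left out in turn, controls included, the range was -1.09 to 0.12 for Aif1, -0.22 to 1.74 for Bdnf, -1.86 to 4.49 for Cd74, -1.67 to 3.53 for Drd1, -0.55 to 1.08 for Fos, -0.67 to 1.49 for Gfap, -0.23 to 0.23 for Gria2, -0.39 to 0.66 for Grin1, -0.55 to 0.16 for Grin2b, -2.03 to 2.26 for Penk, -0.75 to 2.67 for Ppp1r1b, -2.14 to 4.71 for RT1-Da, -0.38 to 1.47 for Slc17a7, -0.86 to 0.01 for Syp and -0.64 to 0.49 for Tmem119.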
